A study of Mus musculus with 18 samples.

Results

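The comparison set uteri of ovariectomized wild-type mice that carried a continuous source of estradiol (WT E2) against uteri of wild-type mice with their own ovaries (WT intact). It used 6 of the 18 libraries of the series, chosen by their hormone state and genotype, namely WT E2 replicates 1, 2 and 5 and WT intact replicates 1, 2 and 4. WT E2 mice had their ovaries removed at 4 weeks of age and then carried a pellet of 0.5 mg of 17β-estradiol, with 90 days of release, for 8 weeks. WT intact mice kept their ovaries, and their stage of the estrous cycle was not given in the sources used here. Ovariectomized wild-type mice without a pellet (WT ovx, 3 libraries) and mice labelled as lacking Tsc2 in the uterus, with a pellet (KO E2) or with ovaries (KO intact), served as further groups of 3 libraries each. All mice were 12 weeks old on a mixed 129Sv and C57BL/6 background, and messenger RNA was read from cross sections of the whole uterus, so that epithelium, stroma, muscle, vessels and resident blood cells were measured together. In such bulk samples, fewer cells of a type and less RNA per cell cannot be told apart. The transgene meant to remove Tsc2 is not named in the labels. Nor do they tie libraries to individual mice, and p-values therefore describe the spread among samples, which may be technical.

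Estradiol acts on the uterus through the nuclear receptor encoded by Esr1. It is known to induce secreted proteins such as lactotransferrin, complement C3 and lipocalin 2 in the epithelium, to raise the oxytocin receptor in muscle and to draw water and leukocytes into the tissue. In a mouse with ovaries, estradiol rises only around ovulation and progesterone then opposes it, limiting epithelial growth and restraining the entry of neutrophils. Progesterone acts through its own receptor, Pgr, and is known to induce Indian hedgehog (Ihh) in the epithelium, which signals to the stroma. An ovariectomized mouse with an estradiol pellet lacks this alternation and has no ovarian source of progesterone.

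The values were deposited as FPKM, that is fragments scaled to transcript length and to the mapped total, and no read counts came with them. Depth is thus unknown, and no interval can be given for low genes. FPKM summed to between 388538 and 591668 in WT E2 libraries and between 279401 and 423992 in WT intact libraries, and 5220 to 5581 genes in WT E2 libraries and 5815 to 7395 genes in WT intact libraries were listed at 0. A single symbol, LOC236598, took up 26.6% of the summed FPKM of WT E2 replicate 2. Pearson's r across genes, which are not independent replicates, was 0.946 to 0.961 between WT E2 libraries and 0.872 to 0.942 between WT intact libraries. WT intact replicate 4 stood apart: its mean r was 0.889 with the WT E2 libraries and 0.891 with the other 2 WT intact libraries, and results that rest on it are given below with and without it. The shared steps of the lowest values placed WT intact replicates 1 and 4 in batch 1, WT intact replicate 2 in batch 2, WT E2 replicate 5 in batch 3 and WT E2 replicates 1 and 2 in batch 4. These sets, called batches here, rest on the values alone, are named in no label, and had their number fixed at 4. No batch held libraries of both groups, so within-batch values could not be had, no batch term could be fitted, and batch and hormone state cannot be told apart in any difference between WT E2 and WT intact. WT E2 and WT ovx libraries, by contrast, shared batches 3 and 4.

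Of 25791 genes in the table, 13898 reached 1 FPKM in 3 or more of the 18 libraries. These were tested with limma, which fits a linear model to log2(FPKM + 1) and shares the estimate of spread across genes. In WT E2 against WT intact uteri, 1937 genes passed an adjusted p of 0.05, which was 13.9% of those tested. These comprised 1379 genes that were higher in WT E2 (9.92%) and 558 that were lower (4.01%). The higher genes also differed by more: 859 of them were at least 2-fold higher and 310 at least 4-fold higher, while 163 were at least 2-fold lower and 17 at least 4-fold lower. The median log2 difference was 1.21 over the genes called higher and -0.80 over those called lower, against -0.02 over all genes tested. The libraries of both groups did not overlap in 28.3% of tested genes.

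The excess of higher over lower calls depended on scaling. Higher genes were 71.2% of those called, 58.7% after median-ratio scaling, 51.6% after a correction for transcript length that was chosen after seeing the data, and 37.4% after quantile normalization, which moved the median of all genes to -0.13. The count of lower genes also rested on single libraries. It was 260, 134 and 1114 without WT E2 replicates 1, 2 and 5, and 295, 261 and 921 without WT intact replicates 1, 2 and 4. The count of higher genes ran from 928 to 1717 over the same 6 fits, and it was 584 in a fit of the 6 compared libraries alone, where lower genes were 54. Of those 584 and 54, 549 and 46 were also called, in the same direction, in the fit of all 18 libraries.

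**Figure D1:**
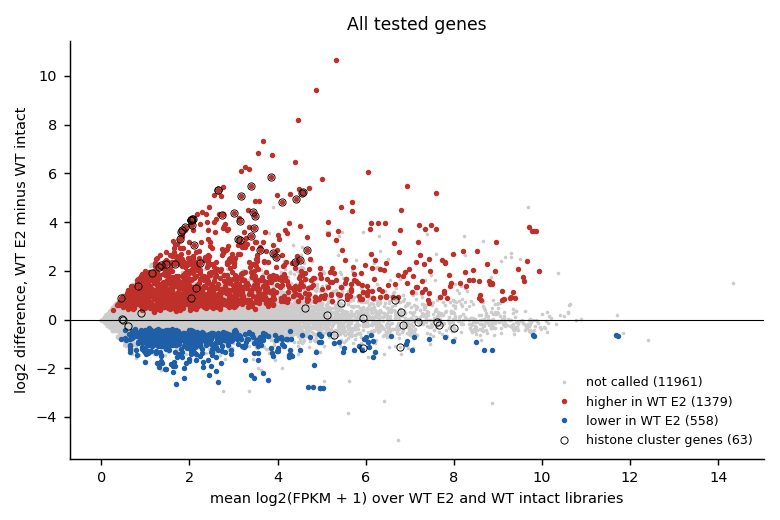
Log2 difference between WT E2 and WT intact uteri (vertical) against mean log2(FPKM + 1) over both groups (horizontal), 1 point for each of the 13898 genes tested. Red points mark the 1379 genes called higher in WT E2, blue points the 558 called lower, and black rings the 63 histone cluster genes, most of which lie well above 0.

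Several acute-phase and antimicrobial genes were among the 15 with the largest increase, beside genes of other kinds such as a pair of microRNA genes and a pair of histone genes. Serum amyloid A3 (Saa3), an acute-phase protein made locally in inflamed epithelia, had 106, 381 and 1309 FPKM in WT E2 uteri, against 0.0426, 0.0498 and 0.969 FPKM in WT intact uteri. The groups did not overlap, and the difference was 8.19 ± 1.37 log2 units (standard error; limma, adjusted p = 0.0011). S100a9, a subunit of calprotectin, the metal-binding protein that neutrophils and inflamed epithelia release, had 39.8, 142 and 339 FPKM in WT E2 uteri, against 0.177, 0.0996 and 0.0678 FPKM in WT intact uteri (log2 difference 6.82 ± 1.21, limma adjusted p = 0.00168). Its partner subunit S100a8 had 29.4, 98.1 and 218 FPKM in WT E2, against 0.486, 0.146 and 0 FPKM in WT intact (6.19 ± 1.28, limma adjusted p = 0.00491). In all 3 genes WT E2 replicate 5 was highest and WT E2 replicate 1 lowest, and every WT E2 library lay above every WT intact library.

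Haptoglobin (Hp), which binds free hemoglobin, had 36.7, 242 and 379 FPKM in WT E2 uteri, against 1.37, 0.145 and 0.0671 FPKM in WT intact uteri. Chitinase-like protein 1 (Chi3l1), a secreted lectin of inflamed tissue, had 109, 124 and 571 FPKM in WT E2, against 0.0591, 0.188 and 8 FPKM in WT intact. Their log2 differences were 6.73 ± 1.23 and 6.47 ± 0.79 (limma adjusted p = 0.00212 and 6.77e-05). Saa1 and Saa2, whose transcripts are near copies of each other so that their reads may be shared, were 6.24 ± 1.18 and 6.08 ± 1.18 log2 units higher (limma adjusted p = 0.00271 and 0.00311). Each of these calls was kept when any of the 6 libraries was left out.

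Upstream sequences are shown for Saa3, Saa1, S100a9 and S100a8, which were among the 15 genes with the largest increase. These genes lie in 2 clusters, with Saa genes on chromosome 7 and S100a genes on chromosome 3. The sequences are the 250 bases before the RefSeq start of each gene in the GRCm38.p6 build. They are read 5′ to 3′ on the gene's strand, which is the minus strand for all but S100a8. Capitals mark matches, on either strand, to TTGCNNAA, the core letters of the site of C/EBP factors, which are known to drive acute-phase genes in the liver. This motif was chosen after the leading genes had been seen. The window of S100a8 holds no match and is shown for comparison with that of its partner S100a9. Scgb3a1, whose increase was larger than that of these genes, had a window without a match, which is not shown.
Saa3 (chr7:46715677-46715926): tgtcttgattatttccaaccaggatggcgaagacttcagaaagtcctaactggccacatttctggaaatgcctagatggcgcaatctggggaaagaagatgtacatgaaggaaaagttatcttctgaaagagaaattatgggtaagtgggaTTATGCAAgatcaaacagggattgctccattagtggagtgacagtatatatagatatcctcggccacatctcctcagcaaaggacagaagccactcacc
Saa1 (chr7:46742981-46743230): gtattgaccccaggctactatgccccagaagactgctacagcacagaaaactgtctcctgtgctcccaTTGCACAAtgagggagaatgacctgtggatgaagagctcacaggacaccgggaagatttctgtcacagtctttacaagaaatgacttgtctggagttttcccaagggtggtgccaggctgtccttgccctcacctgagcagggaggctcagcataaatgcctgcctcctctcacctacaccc
S100a9 (chr3:90695722-90695971): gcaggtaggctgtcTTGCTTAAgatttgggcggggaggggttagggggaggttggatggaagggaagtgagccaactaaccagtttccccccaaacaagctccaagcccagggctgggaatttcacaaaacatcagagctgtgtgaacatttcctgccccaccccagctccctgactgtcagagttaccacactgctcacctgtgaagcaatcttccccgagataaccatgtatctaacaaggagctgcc
S100a8 (chr3:90668821-90669070): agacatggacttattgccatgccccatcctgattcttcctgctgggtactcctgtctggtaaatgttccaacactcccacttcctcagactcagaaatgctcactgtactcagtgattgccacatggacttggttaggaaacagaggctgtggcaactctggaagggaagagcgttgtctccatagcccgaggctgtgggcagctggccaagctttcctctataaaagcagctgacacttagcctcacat

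Of the 15 genes with the largest increase, 7 had a promoter window (250 bases before to 50 after the start) and 4 of these, Saa1, Saa2, Saa3 and S100a9, held the C/EBP letters. The same letters were present in 10.2% of the 836 matched promoters of genes called higher, 12.1% of the 356 matched promoters of genes called lower, 10.2% of those of all tested genes and 10.8% of 32851 promoter windows. A site of NF-κB, read as GGGA, any base, TT, any base and CC and also chosen after the values had been seen, was in 1.67% of promoters of higher genes, 0.843% of those of lower genes and 1.57% of those of tested genes. The full palindrome of the estrogen response element, GGTCA and TGACC with any 3 bases between them, was in 0 of 836 promoters of higher genes and 0 of 356 of lower genes, and in 23 of 32851 windows. These letters were searched in short windows on both strands, and a match or its absence is a description of the window only.

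**Figure D2:**
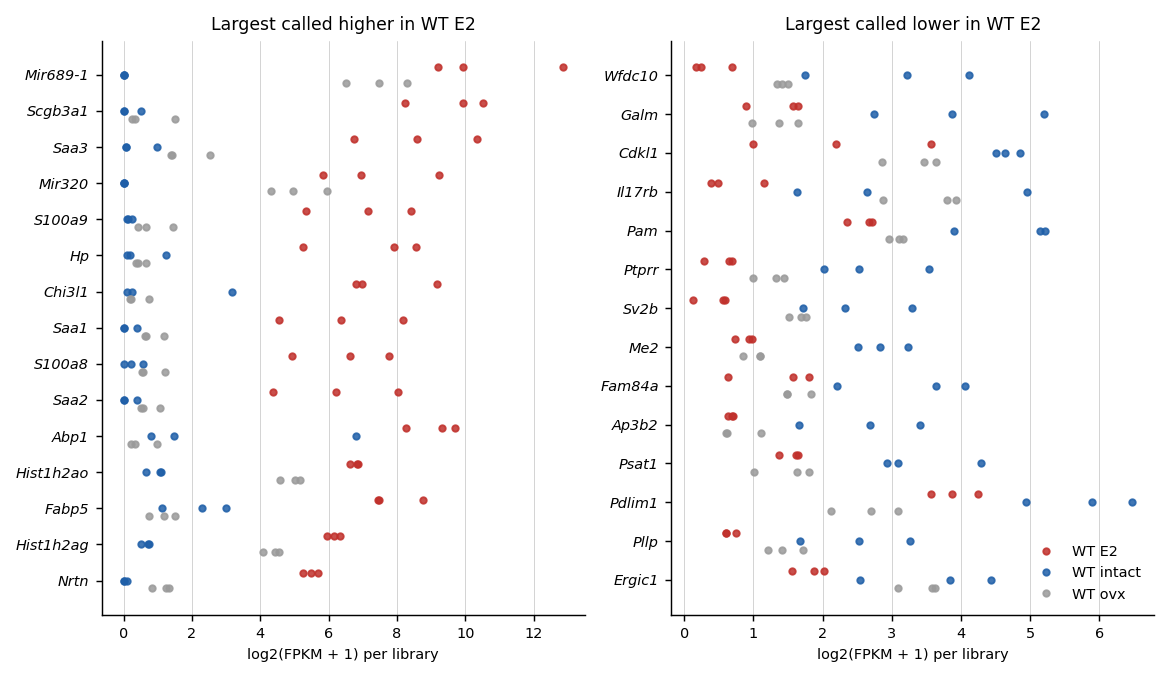
Values of 29 of the genes with the largest increase (left) and decrease (right) in WT E2 against WT intact uteri, as log2(FPKM + 1), with 1 point for each library and WT ovx libraries in grey. The genes were chosen for a lack of overlap between WT E2 and WT intact, and the increases span more of the scale than the decreases.

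Among secreted products of the uterine epithelium, 6 of 19 tested list members were called higher and 3 lower. The shares called over all tested genes were 9.92% higher and 4.01% lower. Scgb3a1, a small secretoglobin of mucosal surfaces, had 301, 981 and 1472 FPKM in WT E2 uteri, against 0, 0 and 0.413 FPKM in WT intact uteri. Its log2 difference of 9.40 ± 0.97 (limma adjusted p = 1.15e-05) was the largest of a protein-coding gene named here, and WT ovx uteri had 0.174 to 1.83 FPKM. Clusterin (Clu), a secreted chaperone, had 192, 392 and 390 FPKM in WT E2 and 18.7, 16.4 and 21.3 FPKM in WT intact (3.97 ± 0.71, limma adjusted p = 0.00172). The cysteine protease inhibitor Cst3 was 1.88 ± 0.26 log2 units higher in WT E2 (limma adjusted p = 0.000247). The count of higher members was 3 without WT E2 replicate 5 and also without WT intact replicate 1 or 2, and the count of lower members was 0 without WT E2 replicate 5 or WT intact replicate 2 or 4 and 1 without WT E2 replicate 2 or WT intact replicate 1.

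Lipocalin 2 (Lcn2), an antibacterial siderophore-binding protein, was among the most abundant secreted products, at 3663, 3679 and 4904 FPKM in WT E2, against 14.9, 173 and 1612 FPKM in WT intact. Its libraries did not overlap, yet its log2 difference of 4.62 ± 1.5 did not pass (limma adjusted p = 0.0522), with the WT intact libraries spread over 2 orders of magnitude. Complement C3 had 449.7, 402 and 646 FPKM in WT E2, against 9.27, 102 and 433 FPKM in WT intact (2.67 ± 0.99, limma adjusted p = 0.0876). Without WT intact replicate 4, which held the highest value of either gene in its group, both passed (limma adjusted p = 0.00742 for Lcn2 and 0.0067 for C3). Lactotransferrin (Ltf), the classical estrogen-induced secretory protein of the mouse uterus, was listed at 0 in WT E2 replicates 1 and 5 and at 2103 FPKM in replicate 2, against 63.7, 217 and 448 FPKM in WT intact. An entry of 0 in this table can be a failed estimate, and no change of Ltf was called in the reported fit (limma adjusted p = 0.275). Without WT E2 replicate 2, Ltf was called lower (log2 difference -7.53, limma adjusted p = 0.00614). The WT E2 libraries left in that fit were those listed at 0.

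The 3 members of this list that fell were Serpina1a, Serpina1b and Serpina1e, near-identical copies that encode α1-antitrypsin and whose reads may be shared. Serpina1a had 60, 5.43 and 2.21 FPKM in WT E2, against 38.8, 64.7 and 147 FPKM in WT intact, so that WT E2 replicate 1 lay above WT intact replicate 1 (log2 difference -2.75 ± 0.86, limma adjusted p = 0.0463). Its call ended without WT E2 replicate 2 or 5 or any of the WT intact libraries, at adjusted p between 0.0549 and 0.175. Without WT E2 replicate 1 the log2 difference was -4.0 (limma adjusted p = 0.0016). That library also stood apart in the summed FPKM of 2 oviduct and cilia markers, with 159.5 against 9.30 and 14.0 in WT E2 replicates 2 and 5 and 1.09 to 43.6 in WT intact, and their part in the value was not tested. Prap1, a secreted protein of the uterine and intestinal epithelium, had 85.2, 20.7 and 9.11 FPKM in WT E2 and 44.6, 632 and 688 FPKM in WT intact (-3.35 ± 1.19, limma adjusted p = 0.0737). Without WT intact replicate 1, Prap1 was called lower (log2 difference -4.63, limma adjusted p = 0.0213).

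Of 33 tested genes known to be raised by estradiol in the rodent uterus, 8 were called higher in WT E2 and 0 lower, with a median log2 difference of 1.91. Over all tested genes 9.92% were called higher. Like the other lists, this one was chosen with earlier results of these data known. The oxytocin receptor (Oxtr), through which oxytocin contracts the myometrium, had 13, 13.9 and 8.13 FPKM in WT E2, against 0.354, 3.14 and 0.627 FPKM in WT intact (2.57 ± 0.35, limma adjusted p = 0.000179). Connective tissue growth factor (Ctgf) had 43.9, 26 and 17.9 FPKM in WT E2, against 2.22, 4.17 and 0.994 FPKM in WT intact (3.14 ± 0.42, limma adjusted p = 0.000178). The other members called higher were Chi3l1, the neuropeptide galanin (Gal), the activin subunit Inhbb, Wnt4, the protease inhibitor Slpi and the creatine kinase Ckb. The libraries of Ckb overlapped between the groups (1.77 ± 0.52, limma adjusted p = 0.0364), and its adjusted p was 0.136, 0.161, 0.0553 and 0.103 without WT E2 replicates 1 and 2 and WT intact replicates 1 and 4. Slpi rose by 2.82 ± 0.89 log2 units (limma adjusted p = 0.0464), a call that ended whichever library was left out, at adjusted p of 0.0591 to 0.164.

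At an unadjusted p of 0.05, 17 of the 33 genes were higher and 2 lower. The cornified-envelope gene Sprr2f had 1712, 2559 and 3875 FPKM in WT E2, against 134, 292 and 8171 FPKM in WT intact. The water channel Aqp5 had 84.7, 60.1 and 48.4 FPKM in WT E2, against 3.36, 9.12 and 37.7 FPKM in WT intact (2.41 ± 1.03, limma adjusted p = 0.134). In each of these genes WT intact replicate 4 was the highest of its group. Over the whole list the summed FPKM was 8960, 12478 and 18103 in WT E2, against 606, 2263 and 19591 in WT intact. Without WT intact replicate 4, 16 of the 33 genes were called higher in place of 8, and 1 was called lower. With any other single library left out, 6 or 7 were called higher. In these fits 2 were called lower without WT intact replicate 1, 1 without WT E2 replicate 2 and 0 otherwise. In a fit of the 6 compared libraries alone 6 were called higher and 1 lower.

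Of 11 tested steroid receptors and co-factors, 3 were called lower and 0 higher, and every member had a negative difference. The share called lower over all tested genes was 4.01%. Esr1, the estrogen receptor, had 4.95, 2.99 and 10 FPKM in WT E2, against 11.5, 12.8 and 14.6 FPKM in WT intact, without overlap (-1.12 ± 0.33, limma adjusted p = 0.0341). The membrane estrogen receptor Gper (-0.81 ± 0.24) and the coactivator Ncoa2 (-0.73 ± 0.19) were the other 2 (limma adjusted p = 0.0392 and 0.0187). These calls were fragile. That of Esr1 ended without WT E2 replicates 1 or 2 or without any of the WT intact libraries, at adjusted p of 0.0945, 0.176, 0.0637, 0.0777 and 0.0663, and 0 members of the list passed in limma without WT E2 replicate 1 or 2 or WT intact replicate 1 or 2. At an unadjusted p of 0.05, 5 of the 11 were lower and 0 higher. The progesterone receptor Pgr, itself a target of estradiol, had 11, 6.83 and 24.3 FPKM in WT E2 and 25.1, 13.8 and 8.22 FPKM in WT intact (-0.19 ± 0.41, limma adjusted p = 0.791).

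Among 24 tested genes known to be raised by progesterone, 1 was called lower and 0 higher, and 6 had a positive difference. The count of 1 in 24 lay near the 4.01% called lower over all tested genes. The median log2 difference was -0.48. The member that fell was Gata2, a transcription factor that acts with Pgr, at 14.8, 9.61 and 14.6 FPKM in WT E2 and 29.3, 23.1 and 18 FPKM in WT intact (-0.80 ± 0.25, limma adjusted p = 0.0432), and its call ended without WT E2 replicates 1 or 2 or WT intact replicates 1 or 2 (adjusted p = 0.0596, 0.196, 0.164 and 0.094). Ihh had 0.162, 0.0244 and 0.044 FPKM in WT E2, against 11, 2.61 and 0 FPKM in WT intact, so that the WT intact libraries lay on both sides of WT E2 (-1.71 ± 0.61, limma adjusted p = 0.0756). Without WT intact replicate 4, the library at 0, Ihh passed (limma adjusted p = 0.00131), and 5 members of the list were called lower. Without WT intact replicate 1, by contrast, 1 member was called higher and 0 lower, with a median of -0.13. Fkbp5, a steroid-induced co-chaperone, had 0.424, 0.522 and 0.778 FPKM in WT E2, against 4.59, 1.45 and 1.13 FPKM in WT intact, without overlap (-0.97 ± 0.48, limma adjusted p = 0.19). Areg, Il13ra2 and Calca, further classical targets of progesterone, were below the filter on low values.

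All 7 tested hedgehog pathway genes had negative differences, with a median of -0.59, and 0 of them were called by limma. At an unadjusted p of 0.05, 3 were lower, against 4159 of all 13898 tested genes in either direction. Ptch1, the hedgehog receptor and a target of the pathway, had 0.286, 0.235 and 0.772 FPKM in WT E2, against 2.33, 0.551 and 0.526 FPKM in WT intact (-0.50 ± 0.30, limma adjusted p = 0.278). Without WT intact replicate 4, 3 of the 7 were called lower.

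**Figure D3:**
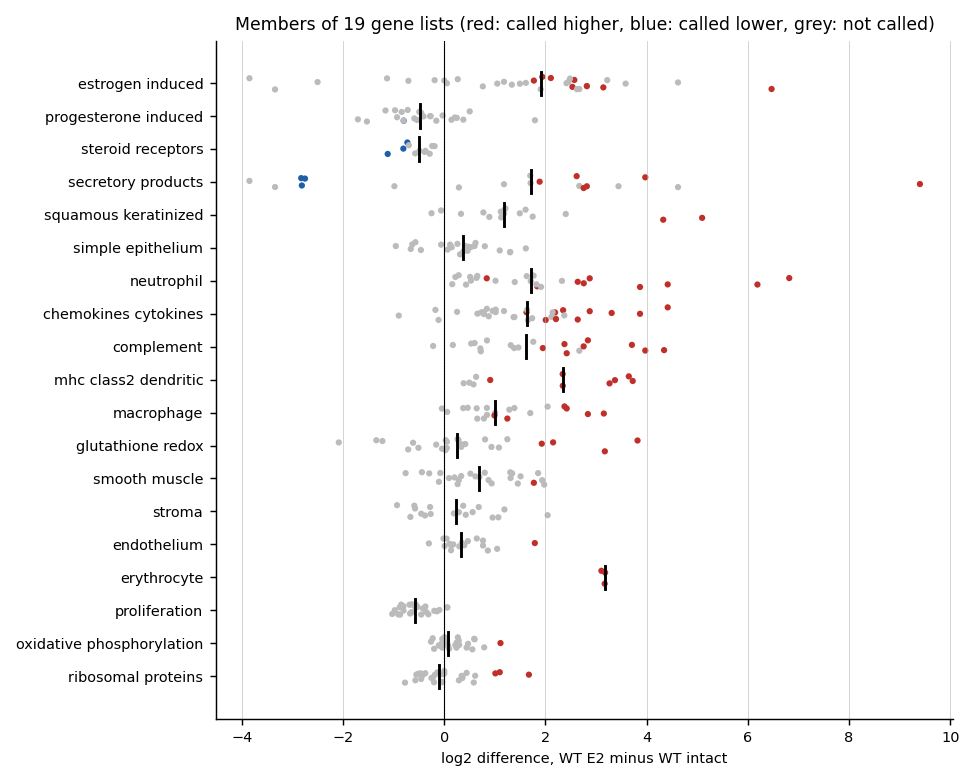
Log2 differences between WT E2 and WT intact uteri for the tested members of 19 gene lists, 1 point for each gene, red where called higher, blue where called lower and grey where not called. Black bars mark the median of a list, and the median of all tested genes lies at -0.02, next to the line at 0. The neutrophil, chemokine, complement and MHC class II lists have medians between 1.61 and 2.34.

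Lists of leukocyte genes differed in how many members were called. They also hold factors that attract or act on these cells, so their counts are not counts of cell markers alone. Of 6 mast cell genes 0 were called higher and 1 lower (median -0.75). Of 6 genes of the eosinophil list 1 was called higher (median 0.20), the attractant Ccl11, which is given again below with the chemokines. Of 11 lymphocyte and NK cell genes 1 was called higher (median 0.53), near the 9.92% called higher over all tested genes. Of 25 tested neutrophil genes 9 were called higher and 0 lower, the median log2 difference was 1.71, and in 21 the libraries did not overlap with WT E2 on the higher side, against 17.6% of all tested genes. Besides S100a8 and S100a9, they comprised the G-CSF receptor Csf3r, the formyl peptide receptor Fpr2, the cytokine Il1f9, the growth factor Csf3 and the chemokines Cxcl1, Cxcl2 and Cxcl5, which attract neutrophils. Cxcl5 had 14.9, 11.5 and 55.2 FPKM in WT E2, against 0.0934, 0.0122 and 0.0399 FPKM in WT intact (4.42 ± 0.65, limma adjusted p = 0.000386). Cxcl2 had 11.6, 24.5 and 10.3 FPKM in WT E2, against 0.0125, 0.126 and 0.0177 FPKM in WT intact (3.87 ± 0.97, limma adjusted p = 0.0159, and 0.0717 without WT E2 replicate 2). The calls of Csf3r, Cxcl1 and Csf3 ended too, at adjusted p of 0.0933, 0.0713 and 0.0661 for Csf3r without WT E2 replicates 2 and 5 and WT intact replicate 4, of 0.0609 to 0.151 for Cxcl1 without any library but WT E2 replicate 1, and of 0.056 for Csf3 without WT intact replicate 1. Genes of neutrophil granules made in the bone marrow were near 0 in both groups: Mpo had 0.0906, 0.16 and 0.484 FPKM in WT E2 and 0.17, 0.0195 and 0 FPKM in WT intact, and Elane had at most 0.312 FPKM.

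Of 33 tested chemokines and cytokines 10 were called higher and 0 lower, against 9.92% and 4.01% of all tested genes. The interleukin Il1b had 4.23, 22.8 and 9.4 FPKM in WT E2, against 0.0687, 0.204 and 0.0351 FPKM in WT intact (3.31 ± 0.59, limma adjusted p = 0.00165). Tnf had 2.97, 2.69 and 7.54 FPKM in WT E2, against 0.0506, 0.0914 and 0.108 FPKM in WT intact (2.21 ± 0.46, limma adjusted p = 0.00499). Ccl11, the eosinophil attractant eotaxin, was 2.19 ± 0.41 log2 units higher (limma adjusted p = 0.00254), while the eosinophil peroxidase gene Epx was at or near 0 in both groups, at no more than 0.00665 FPKM. The count of 10 was 5 without WT E2 replicate 2 and also without WT intact replicate 1.

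Complement genes followed, with 8 of 20 tested members called higher, 0 lower and a median of 1.61. The shares called over all tested genes were 9.92% higher and 4.01% lower. C4b, of the classical pathway, had 9.05, 49.5 and 36.1 FPKM in WT E2, against 0.714, 2.1 and 0.588 FPKM in WT intact (3.71 ± 0.43, limma adjusted p = 3.59e-05). C4bp, which restrains that pathway, had 19.6, 11 and 51.5 FPKM in WT E2, against 0.222, 0.0639 and 0.191 FPKM in WT intact (4.34 ± 0.49, limma adjusted p = 3.02e-05). The macrophage-made components C1qa, C1qb and C1qc rose by 2.84 ± 0.57, 2.38 ± 0.64 and 2.42 ± 0.59 log2 units (limma adjusted p = 0.00386, 0.0225 and 0.0135), and 5 members of the list were called without WT E2 replicate 2. The adjusted p of C1qb was 0.110 without that library and 0.0515 without WT intact replicate 4, and that of C1qc was 0.0678 without WT E2 replicate 2. Of 20 tested macrophage genes 6 were called higher and 0 lower, among them the lipopolysaccharide co-receptor Cd14, at 135, 341 and 561 FPKM in WT E2 and 22.4, 28.9 and 52 FPKM in WT intact (3.15 ± 0.58, limma adjusted p = 0.00223). That count was 3 without WT E2 replicate 2.

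Genes of MHC class II presentation had a median of 2.34, and 7 of 11 tested members were called higher and 0 lower. The share called higher over all tested genes was 9.92%. H2-Ab1, a class II chain, had 78.3, 477 and 80.7 FPKM in WT E2, against 23.8, 30.5 and 1.02 FPKM in WT intact (3.65 ± 0.92, limma adjusted p = 0.0166). The invariant chain Cd74 had 139, 891 and 121 FPKM in WT E2, against 47.6, 47.2 and 1.83 FPKM in WT intact (3.72 ± 0.98, limma adjusted p = 0.0204). WT E2 replicate 2 was far above, and WT intact replicate 4 far below, the other libraries of its group. WT E2 replicate 2 also held fat cell markers at a summed 31.7 FPKM, against 0.202 and 0.185 FPKM in WT E2 replicates 1 and 5 and at most 0.0317 FPKM in WT intact, and their part in the class II values was not tested. The count was 4 without WT intact replicate 4. Without WT E2 replicate 2, 0 of the 11 genes passed in limma, and the adjusted p was 0.0911 for H2-Ab1 and 0.112 for Cd74.

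Other markers in the sections moved alongside. The summed FPKM of 3 macrophage markers (Csf1r, Cd68 and C1qa) was 41.9, 92.4 and 51.9 in WT E2, against 14.4, 20.3 and 22.3 in WT intact. The 2 lymphocyte markers Cd3e and Cd79a summed to 0.432, 4.93 and 0.985 in WT E2 and 0.194, 0.598 and 0.019 in WT intact. The red cell genes Hbb-b1 and Alas2 summed to 18.3, 52.2 and 24.1 in WT E2, against 1.64, 4.45 and 1.93 in WT intact and 12.2, 14.3 and 11.5 in WT ovx. All 3 tested globin genes were called higher in WT E2, against 9.92% of all tested genes. Hbb-b1, for example, was higher by 3.10 ± 0.58 log2 units (limma adjusted p = 0.00235). The part of blood left in the tissue in the leukocyte differences was not tested.

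Genes of structural cell types had few calls. Of 23 genes of simple epithelium 0 were called by limma in either direction (1 higher and 1 lower at an unadjusted p of 0.05), and keratin 8 (Krt8) had 194, 141 and 254 FPKM in WT E2 and 68.8, 107 and 257 FPKM in WT intact (0.62 ± 0.69, limma adjusted p = 0.584). Of 18 stromal genes 0 were called by limma, and 1 was lower at an unadjusted p of 0.05. The 6 stromal markers summed to 98.6, 114 and 76.9 FPKM in WT E2, against 203, 390 and 33.9 FPKM in WT intact, where replicate 4 was the lowest of all 6 libraries. The median log2 difference of the stromal list was 0.24, and it turned to -0.55 without WT intact replicate 4 and to -0.14 with a replicate block. The 5 simple epithelial markers of that library summed to 976 FPKM, the highest of the 6, and its 3 endothelial markers to 1.10 FPKM, the lowest.

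**Figure D4:**
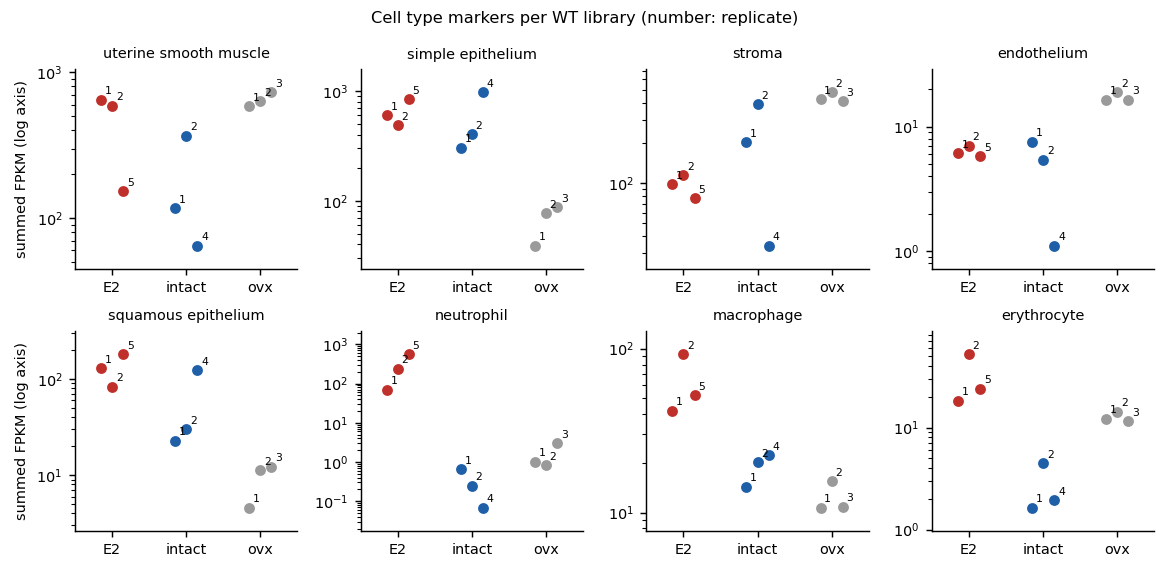
Summed FPKM of cell type markers in each WT library on log axes, for WT E2 (red), WT intact (blue) and WT ovx (grey), with the replicate number beside each point. WT E2 and WT intact overlap for muscle, simple and squamous epithelium, stroma and endothelium and do not overlap for neutrophil, macrophage and erythrocyte markers.

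Of 16 tested genes of stratified squamous epithelium 2 were called higher in WT E2 and 0 lower, a share near the 9.92% called higher over all tested genes. They were Ly6d, a surface protein of squamous keratinocytes, and Sprr1b, a cornified-envelope precursor. Ly6d had 36, 140.1 and 151 FPKM in WT E2, against 0.195, 0.435 and 10.5 FPKM in WT intact (5.10 ± 0.77, limma adjusted p = 0.000487). Keratin 5 (Krt5), of basal cells, had 50.6, 32.1 and 65.2 FPKM in WT E2, against 7.33, 10.6 and 40.4 FPKM in WT intact (1.61 ± 0.69, limma adjusted p = 0.136). Here too WT intact replicate 4 held the highest value of its group, and 11 of the 16 genes were called higher without it.

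Smooth muscle genes had a median log2 difference of 0.69, and 1 of 25, Ckb, was called higher and 0 lower. The share called higher over all tested genes was 9.92%. With a replicate block, 10 were called higher and 1 lower. Desmin (Des), the intermediate filament of muscle, had 123, 95.3 and 21.5 FPKM in WT E2, against 19, 32 and 5.7 FPKM in WT intact (1.97 ± 0.63, limma adjusted p = 0.0506, and 0.00305 with the block). The 5 muscle markers summed to 650, 589 and 153 FPKM in WT E2, against 116, 369 and 64.5 FPKM in WT intact. WT E2 replicate 5 lay within the range of WT intact, and 7 of the 25 genes were called higher without it, while 6 were called without WT intact replicate 2 and 0 without any of the other libraries. The share of muscle wall in each section was not tested.

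Among enzymes that detoxify peroxides and other electrophiles, 4 of 25 tested members of the glutathione and redox list were called higher and 0 lower. Over all tested genes 9.92% were called higher. Gpx1, the cytosolic glutathione peroxidase, had 1716, 1505 and 1311 FPKM in WT E2, against 54, 133 and 629 FPKM in WT intact (3.17 ± 0.61, limma adjusted p = 0.00296). The secreted peroxidase Gpx3 had 22.6, 203 and 127 FPKM in WT E2, against 4.33, 4.84 and 6.05 FPKM in WT intact (3.82 ± 0.72, limma adjusted p = 0.0027). Gpx4, which reduces lipid peroxides, and the transferase Gsta3 were 1.93 ± 0.34 and 2.15 ± 0.36 log2 units higher (limma adjusted p = 0.00165 and 0.00103). Each of these 4 calls was kept when any of the 6 libraries was left out.

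In steroid metabolism, 2 of 11 tested genes were called higher, against 9.92% of all tested genes. Akr1c14, a 3α-hydroxysteroid dehydrogenase, had 20.9, 20.7 and 13.3 FPKM in WT E2, against 2.25, 8.69 and 2.71 FPKM in WT intact (1.96 ± 0.38, limma adjusted p = 0.00308). The other was Hsd17b11 (2.08 ± 0.57, limma adjusted p = 0.0255), whose adjusted p lay between 0.0552 and 0.102 without any of the WT E2 libraries and without WT intact replicate 1 or 2. The diamine oxidase gene, listed under its older symbol Abp1, degrades histamine and polyamines. It had 826, 307 and 635 FPKM in WT E2, against 0.749, 1.79 and 111 FPKM in WT intact (6.06 ± 1.63, limma adjusted p = 0.0225), and its adjusted p was 0.0681, 0.0995 and 0.0842 without WT E2 replicate 1 and WT intact replicates 1 and 2. The fatty acid binding protein Fabp5 had 172, 177 and 432 FPKM in WT E2, against 3.94, 1.18 and 6.89 FPKM in WT intact (5.75 ± 0.55, limma adjusted p = 4.89e-06).

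Ion transporters that move fluid across epithelia included 3 called higher of 23, with 0 lower, and 6 higher and 1 lower without WT intact replicate 4. The share of 3 in 23 lay near the 9.92% called higher over all tested genes. Slc26a4, the anion exchanger pendrin, had 7.96, 23.3 and 43.4 FPKM in WT E2, against 0.0289, 0.32 and 0.706 FPKM in WT intact (4.01 ± 0.73, limma adjusted p = 0.00209). Clca2, whose values ran close to those of its paralog Clca1 so that reads may be shared, was 3.30 ± 0.52 log2 units higher (limma adjusted p = 0.000698). The chloride importer Slc12a2 had 20.6, 20.2 and 27.7 FPKM in WT E2, against 6.12, 4.52 and 12.3 FPKM in WT intact (1.55 ± 0.35, limma adjusted p = 0.00941).

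Among 23 genes of glycolysis and hypoxia 3 were called higher and 0 lower, a share near the 9.92% called higher over all tested genes. They were Pfkl, Pfkp and the glucose transporter Slc2a1. Of these, Slc2a1 lost its call without any library but WT intact replicate 4 (adjusted p of 0.0508 to 0.119) and Pfkp without WT intact replicate 1 or 2 (0.0569 and 0.0505). Pfkl, a phosphofructokinase, had 10.9, 12.6 and 17.7 FPKM in WT E2, against 2.78, 2.71 and 9.26 FPKM in WT intact (1.47 ± 0.32, limma adjusted p = 0.00751). The list's count rose to 18 of 23 without WT intact replicate 4 and was 1 without WT intact replicate 1 or 2. Of 31 lysosomal genes 4 were called higher and 0 lower, also near the share over all tested genes. That count of higher genes was 1 without WT intact replicate 1. The retinoic acid receptor Rara was 0.81 ± 0.15 log2 units higher (limma adjusted p = 0.00235), as 1 of 4 retinoid genes called higher of 17, a count that was 1 without WT E2 replicate 2 or WT intact replicate 1 and 2 without WT E2 replicate 5 or WT intact replicate 2.

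Ligands and receptors of the WNT and TGF-β families included genes called in both directions. Wnt4, a ligand of the uterine epithelium and stroma, had 9.91, 5.75 and 10.8 FPKM in WT E2, against 0.876, 2.22 and 0.8 FPKM in WT intact (2.11 ± 0.37, limma adjusted p = 0.00145), while the receptor Fzd10 had 0.371, 0.281 and 0.585 FPKM in WT E2, against 2.59, 9.21 and 2.09 FPKM in WT intact (-1.78 ± 0.37, limma adjusted p = 0.00563). Over the WNT list, 2 of 25 were called higher and 1 lower, with 7 lower without WT intact replicate 4. The 2 and 1 of the reported fit lay near the shares of 9.92% and 4.01% over all tested genes. Inhbb had 17.6, 17.3 and 21.5 FPKM in WT E2, against 0.562, 2.3 and 6.71 FPKM in WT intact (2.53 ± 0.50, limma adjusted p = 0.00361). Tgfb1 rose by 1.80 ± 0.24 log2 units (limma adjusted p = 0.000142), and the activin and TGF-β list had 4 higher and 2 lower of 18, with 0 lower without WT E2 replicate 1 or 2 or WT intact replicate 2. The neurotrophic factor Nrtn had 50.8, 43.8 and 37.2 FPKM in WT E2, against 0, 0 and 0.0754 FPKM in WT intact (5.44 ± 0.47, limma adjusted p = 1.59e-06).

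Matrix proteases included Mmp7, the epithelial matrilysin, at 125, 143 and 152 FPKM in WT E2 and 2.58, 4.72 and 32.1 FPKM in WT intact (4.00 ± 0.87, limma adjusted p = 0.007). Adamts4, which cleaves proteoglycans, rose by 2.39 ± 0.31 log2 units (limma adjusted p = 0.000132). In the turnover list 3 of 22 members were called higher and 0 lower, a share near the 9.92% called higher over all tested genes. Of 27 collagens and other fibrillar matrix genes 0 were called by limma, and 1 was higher at an unadjusted p of 0.05. Col1a1 had 27.7, 28.7 and 20 FPKM in WT E2 and 60.2, 39.7 and 4.73 FPKM in WT intact.

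Of 27 genes of mitosis and S phase 0 were called by limma in either direction, with 25 negative differences and a median of -0.59. At an unadjusted p of 0.05, 8 were lower and 0 higher, against 4159 of all 13898 tested genes in either direction. With median-ratio scaling 4 were called lower. Mki67, a marker of cycling cells, had 1.18, 0.869 and 2.64 FPKM in WT E2, against 10, 1.73 and 2.78 FPKM in WT intact (-0.98 ± 0.52, limma adjusted p = 0.223). Top2a, the replication-linked topoisomerase, had 1.34, 1.41 and 2.08 FPKM in WT E2, against 10.5, 2.42 and 2.77 FPKM in WT intact, without overlap (-1.03 ± 0.41, limma adjusted p = 0.107). The cyclin Ccnd1 had 4.21, 2.29 and 3.3 FPKM in WT E2, against 8.71, 8.3 and 7.6 FPKM in WT intact, also without overlap (-1.13 ± 0.43, limma adjusted p = 0.0947). Libraries did not overlap, with WT E2 lower, in 7 of the 27 genes, against 10.7% of all tested genes.

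Genes that were lower in WT E2 changed by less. Pam, which amidates the ends of secreted peptides, had 5.38, 4.08 and 5.56 FPKM in WT E2, against 13.8, 34.5 and 36.3 FPKM in WT intact (-2.17 ± 0.38, limma adjusted p = 0.0014). Galm, the mutarotase of galactose metabolism, had 1.98, 0.856 and 2.13 FPKM in WT E2, against 35.6, 13.6 and 5.69 FPKM in WT intact (-2.56 ± 0.50, limma adjusted p = 0.00343). In Galm, WT intact replicate 1 was highest and replicate 4 lowest, and the groups did not overlap.

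Me2, the mitochondrial malic enzyme, had 0.668, 0.965 and 0.918 FPKM in WT E2, against 8.42, 4.72 and 6.08 FPKM in WT intact (-1.97 ± 0.27, limma adjusted p = 0.000194). Psat1, of serine synthesis, had 2.07, 1.6 and 2.13 FPKM in WT E2, against 18.6, 6.63 and 7.55 FPKM in WT intact (-1.89 ± 0.37, limma adjusted p = 0.00325). The adaptor Pdlim1 of the actin cytoskeleton was the most abundant of the 15 genes with the largest decrease, at 13.7, 10.8 and 18 FPKM in WT E2 and 88.1, 58.5 and 29.8 FPKM in WT intact (-1.88 ± 0.42, limma adjusted p = 0.00797). Il17rb, a receptor of interleukin 25, had 1.22, 0.31 and 0.406 FPKM in WT E2, against 30, 5.23 and 2.08 FPKM in WT intact (-2.39 ± 0.58, limma adjusted p = 0.0129), and its adjusted p was 0.0537 without WT E2 replicate 2. Also among the 15 were Wfdc10, Cdkl1, Ptprr, Sv2b, Fam84a, Ap3b2, Pllp and Ergic1, with log2 differences between -2.66 and -1.79. Of these, the call ended for Fam84a without WT E2 replicate 2 (adjusted p = 0.0527), for Pllp without WT intact replicate 1 (0.055) and for Ergic1 without WT E2 replicates 1 or 2 or WT intact replicates 1 or 2 (0.101, 0.0905, 0.143 and 0.0948).

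Pla2g4a, the phospholipase that frees arachidonic acid for prostaglandins, had 5.41, 4.57 and 8 FPKM in WT E2, against 28.2, 12.7 and 12.8 FPKM in WT intact (-1.37 ± 0.38, limma adjusted p = 0.0257). Its adjusted p was 0.0718, 0.107 and 0.118 without WT E2 replicates 1 and 2 and WT intact replicate 1. The prostaglandin list had 3 higher and 2 lower of 22 tested genes and a median near 0, with 0 lower without any of those 3 libraries. Over all tested genes 9.92% were called higher and 4.01% lower.

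Replication-dependent histone genes, whose messages end in a stem-loop and carry no poly(A) tail, were examined as a group after the values had been seen. Of 63 tested genes of the histone clusters, 45 were called higher in WT E2 and 0 lower, with a median log2 difference of 2.71. The share called higher over all tested genes was 9.92%. Hist1h2ao had 115, 113 and 97 FPKM in WT E2, against 1.15, 0.581 and 1.08 FPKM in WT intact and 22.7, 34.6 and 31.5 FPKM in WT ovx. Its log2 difference of 5.83 ± 0.26 had an adjusted p of 6.1e-09 (limma). The 45 genes called higher in WT were also called higher in KO E2 against KO intact, and 40 of the 63 were below 3 FPKM in every WT intact library. The median was 1.79 in WT E2 against WT ovx and -0.95 in WT intact against WT ovx. Many histone genes are near copies of each other, and reads may be shared among them.

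Calls also differed by transcript length. Among genes whose longest transcript was under 300 bases, 12.6% were called higher and 3.36% lower in WT E2. Among those of 300 to 600 bases, 24.7% were called higher and 0.525% lower in WT E2, while among those of at least 4000 bases 4.93% were called higher and 5.89% lower. The median log2 difference between WT E2 and WT intact was 0.17 in the class of 300 to 600 bases and -0.16 in the longest class. In KO E2 against KO intact these medians were 0.24 and -0.20. They were 0.57 and -0.02 in WT E2 against WT ovx, and 0.13 and 0.14 in WT intact against WT ovx. The microRNA genes Mir689-1 and Mir320 were listed at 0 in all 3 WT intact libraries. Mir689-1 had 591, 7425 and 971 FPKM in WT E2 and 312, 175 and 90.7 FPKM in WT ovx, and Mir320 had 56.2, 596 and 123 FPKM in WT E2 and 60.6, 19 and 30 FPKM in WT ovx. A library of messenger RNA does not capture mature microRNAs, and no fold is given against a group listed at 0. The part of library preparation in the values of histone, microRNA and other short genes was not tested, and for E2 against intact uteri it cannot be told apart from the hormone state.

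The WT ovx libraries place these values on a wider scale, with the limit that both comparisons with WT ovx share libraries with the main one. Of the tested genes, 47.5% were called in WT E2 against WT ovx and 45.3% in WT intact against WT ovx (32.3% higher and 15.2% lower in WT E2, and 29.9% higher and 15.4% lower in WT intact). The median log2 difference of the estradiol-induced list was 2.44 in WT E2 against WT ovx and 0.88 in WT intact against WT ovx. The neutrophil list had a median of 1.73 in WT E2 against WT ovx and -0.02 in WT intact against WT ovx, and the complement list one of 1.74 in WT E2 and 0.04 in WT intact, each against WT ovx. For simple epithelium the medians were 2.58 in WT E2 and 2.18 in WT intact, and for mitosis and S phase 0.53 in WT E2 and 1.12 in WT intact. Saa3 had 1.68, 1.58 and 4.7 FPKM in WT ovx, Cxcl5 had at most 0.0608 FPKM and Oxtr had 0.934 to 0.965 FPKM, so that WT intact and WT ovx were both low beside WT E2 in these genes. Esr1 had 12.4, 15.1 and 13.8 FPKM in WT ovx. By the inferred sets, WT E2 and WT ovx libraries lay in batches 3 and 4 together, and WT E2 and WT intact libraries shared no batch. The part of batch in the difference between WT E2 and WT ovx was not tested.

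The same hormone contrast in the libraries labelled as KO used 6 other libraries, with the same division of batches between E2 and intact. Tsc2 itself had 2.42, 1.75 and 2.28 FPKM in KO E2, against 2.73, 2.38 and 2.66 FPKM in WT E2. It had 1.88, 1.98 and 1.62 FPKM in KO intact, against 2.51, 2.25 and 2.04 FPKM in WT intact. In its RNA the libraries labelled KO and WT thus overlapped among E2 uteri. Among intact uteri every KO library lay below every WT library, by a small margin. In KO E2 against KO intact, 2190 genes were called higher (15.8% of those tested) and 1420 lower (10.2%). Genes called higher in both contrasts numbered 979, which was 71.0% of the WT list and 44.7% of the KO list, and genes called lower in both numbered 260, which was 46.6% and 18.3%. In opposite directions, 14 genes were higher in WT and lower in KO, and 0 the reverse.

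A test of the difference between the 2 contrasts called 279 genes, or 2.01% of those tested, with the WT difference above the KO difference in 85 (0.612%) and below it in 194 (1.4%). Claudin 2 (Cldn2), a pore-forming protein of tight junctions, had 22.2, 16.6 and 38.2 FPKM in WT E2 and 0.411, 0.247 and 0.716 FPKM in WT intact, whereas it had 0.349, 4.93 and 0.94 FPKM in KO E2 and 6.47, 7.36 and 17.7 FPKM in KO intact. The contrasts differed by 6.2 ± 0.64 log2 units (limma adjusted p = 0.00105), the WT difference being 4.12 and the KO difference -2.08. Ppp1r1b, a phosphatase inhibitor, had 16.3, 5.55 and 9.25 FPKM in WT E2 and 1.24, 2.24 and 2 FPKM in WT intact, against 0.0858, 0.436 and 0.102 FPKM in KO E2 and 10.2, 7.39 and 10.5 FPKM in KO intact (5.01 ± 0.61, limma adjusted p = 0.00447). The guidance factor Ntn1 (4.18 ± 0.57) and C4bp (4.91 ± 0.69) likewise had WT differences above the KO differences (limma adjusted p = 0.00547 for both).

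Among the 194 genes with the WT difference below the KO difference, 6 were of the neutrophil list, 3 of the macrophage list and 1 of the lymphocyte list. These lists had 25, 20 and 11 tested genes, and the share over all tested genes was 1.4%. Laptm5, a lysosomal protein of blood cells, had 46.7, 63.1 and 37.1 FPKM in WT E2 and 23.9, 67.4 and 35.1 FPKM in WT intact, against 183, 123 and 254 FPKM in KO E2 and 15.9, 9.38 and 11.8 FPKM in KO intact (-3.48 ± 0.51, limma adjusted p = 0.00547). Csf3r (-2.30 ± 0.33) and the cytokine receptor Csf2ra (-1.68 ± 0.23) were below in the same way (limma adjusted p = 0.00547 for both). Of 25 neutrophil genes, all 25 were called higher in KO E2 against KO intact, against 15.8% of all tested genes. Their median was 4.36 beside 1.71 in WT, and the difference of contrasts was called for 6 of them. The filter asked for 1 FPKM in 3 of 18 libraries. A gene low elsewhere could thus be tested through the KO E2 libraries alone, so the count of 25 may be partly set by the filter. The same limit holds for the 6, 3 and 1 genes of the leukocyte lists with differing contrasts. S100a8 and S100a9 together reached 13889, 1383 and 1207 FPKM in KO E2, against 1.29, 0.496 and 1.54 FPKM in KO intact. Fat cell markers, which summed to 31.7 FPKM in WT E2 replicate 2 and to at most 0.327 FPKM in the other WT libraries, summed to 276, 0.16 and 1335 FPKM in KO E2 and 0 in KO intact.

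KO E2 replicate 2 lay closer to WT E2 than its companions did, with a mean r of 0.947 with WT E2 libraries against 0.848 and 0.854 for KO E2 replicates 1 and 3. Its value lay between those of WT E2 and the other KO E2 libraries in Cldn2 and Ntn1, and the count of genes with differing contrasts was 716 without it. That count was 137 without WT E2 replicate 1, and 121, 146 and 169 without KO intact replicates 1, 3 and 4. It was 74 with a pseudocount of 0.1 and 32 in a fit of the 12 compared libraries alone.

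**Figure D5:**
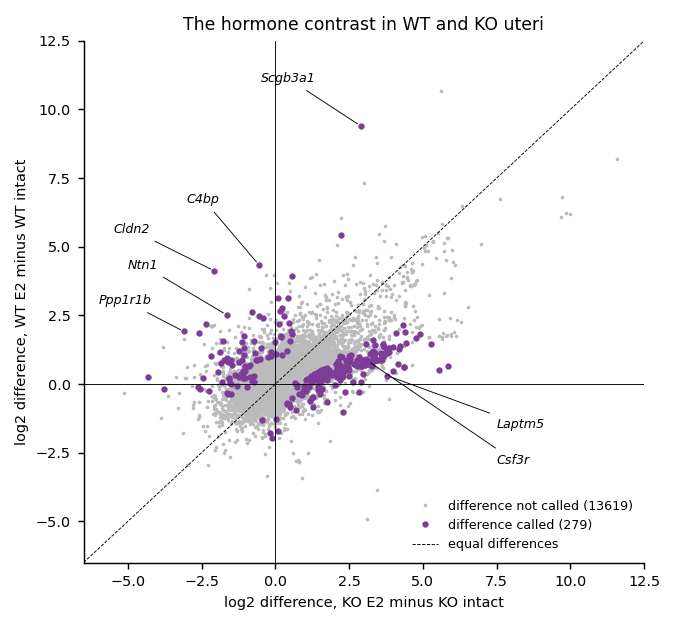
Log2 difference between E2 and intact uteri in WT (vertical) against KO (horizontal), 1 point for each of the 13898 tested genes. Purple points mark the 279 genes whose contrasts differed, and the dashed line marks equal differences. Cldn2, Ntn1, C4bp, Ppp1r1b and Scgb3a1 lie above the line and Laptm5 and Csf3r below it.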

How the data were processed

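RNA from 18 uterine libraries was measured, in 6 groups of 3. Stranded messenger RNA libraries were sequenced single-end (HiSeq2500), per the labels' protocols. The authors deposited FPKM values made with Cufflinks 2.0.2 and Cuffdiff, per the submitters' processing notes. No aligner, annotation or build is named in the sources used here. The replicate numbers are those of the sample titles, with 1 compound number read as replicate 4. Values were analysed as log2(FPKM + 1), so folds of low genes are understated. Genes with at least 1 FPKM in at least 3 of 18 libraries were modelled in R 4.3.3 with limma 3.58.1 (a trend in eBayes), with a mean for each of the 6 groups, two-sided. Benjamini-Hochberg adjustment ran over the 13898 genes in each of 5 contrasts, at a threshold of 0.05, and the model was tested on simulated data. A difference is given ± the standard error, with 3 libraries a group. Exact permutation of 3 against 3 libraries cannot go below 0.1 and was not used.

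Named genes were the 15 with the largest difference each way (called, with 1 group's mean at 5 FPKM or more and no overlap between libraries; clone names were counted and not named), a fixed set of index genes, up to 4 called members of each of 49 gene lists (every member of lists with 5 or fewer) and the 5 leading genes each way for the difference of contrasts. Further list members were named after their values had been seen: C1qb, Clca1, Csf3, Cxcl1, Cxcl2, Il1f9, Slpi, the Serpina1 copies, Elane, Mpo and Top2a. Some items are not reported here. The members and lists were chosen with earlier results of these data known, and lists are described by counts and medians, without a test. Batches were sought in the ratios of values up to 0.05 FPKM, clustered into 4 sets. The same sets came from 3 of 3 other settings of the value limit and ratio width, and other numbers of sets were not tried. Within a batch a pair of libraries shared a ratio in a median of 7.33% of genes, against 2.91% between batches with ovaries alike and 1.47% between intact and ovariectomized libraries. Transcript lengths came from GENCODE M21 and promoters from RefSeq on GRCm38.p6, matched by symbol for 93.8% of tested genes and for 8748 of them, whereas the table's own positions are on a build that was not given and are not printed. Figures were drawn with Python 3.11.15 and matplotlib 3.10.9. Alternatives were other pseudocounts (0.1, 0.5), filters, scalings, a fit of the compared libraries alone, eBayes without trend, a replicate block, each library left out and, added after seeing the data, a correction for transcript length.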

Additional observations from a re-analysis of the deposited data

Results flagged for a closer look

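In 17 named genes the difference between E2 and intact uteri itself differed between WT and KO (limma test of the difference, adjusted p under 0.05). The values are the WT minus the KO log2 difference. It was positive, meaning higher in WT E2 against WT intact than in KO E2 against KO intact, for Scgb3a1 (6.51), Cldn2 (6.2), Ppp1r1b (5.01), C4bp (4.91), Ntn1 (4.18), Nrtn (3.21), Ctgf (3.07), Serpinb7 (2.54), Slc12a2 (2.27) and Gal (1.42). For Ctgf the WT difference was 3.14 and the KO difference 0.07, for Slc12a2 1.55 and -0.72, and for Serpinb7, a serine protease inhibitor, -0.10 and -2.64. It was negative for Laptm5 (-3.48), the formyl peptide receptor Fpr2 (-3.06), Csf3r (-2.3), Me2 (-1.86), Csf2ra (-1.68), Arhgap9 (-1.59) and the Fc receptor Fcgr1 (-1.26). In Me2 the WT difference was -1.97 and the KO difference -0.12. Scgb3a1 had 3.03, 80.1 and 1.08 FPKM in KO E2 and 0.0719, 0.254 and 0.254 FPKM in KO intact. Nrtn had 2.26, 14.5 and 1.24 FPKM in KO E2 and 0, 0.0965 and 0 FPKM in KO intact. In both genes KO E2 replicate 2 stood above the other KO E2 libraries.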

How the results depend on the processing

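The counts that moved by over 1.5 times under another setting were as follows, and the cause was not tested. In WT E2 against WT intact, 1379 genes were higher in the reported fit and 584 in a fit of the compared libraries alone, with a range of 928 to 1717 when 1 library was left out. Lower genes numbered 558, and 1119 with median-ratio scaling, 2243 with quantile normalization, 1303 with the length correction added after seeing the data, 54 with the compared libraries alone and 134 to 1114 when 1 library was left out. In KO, lower genes numbered 1420, and 3629 with quantile normalization, 839 with the compared libraries alone and 638 to 2183 when 1 library was left out. Differing contrasts numbered 279, and 74 with a pseudocount of 0.1, 32 with the compared libraries alone and 121 to 716 when 1 library was left out. Of 116 named genes called in WT, 71 were called in every fit that left out 1 library, 51 in every setting, and 0 reversed. The 45 histone genes called higher were 43 to 45 under all settings.

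Deviations from the group means correlated at -0.01 for number 1 and 0.23 for number 2, the only replicate numbers both WT groups had. WT pairs with unlike numbers ran from -0.46 to 0.35, so these values cannot tell whether shared numbers pair the libraries. With the replicate number as a block, 1365 genes were higher and 770 lower in WT, and the count of differing contrasts was 261. Depth was not given, so no statement is made that a low gene was absent.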
